A study of Mus musculus with 20 samples.

Results

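Of 1108530 autosomal CpG positions with a methylation value in every library of both ages, 64878 were isolated and lay outside coding genes. A position was taken as isolated when at most 2 other listed positions lay within 500 bp of it, and as outside coding genes when it lay over 1 kb from any annotated mouse protein-coding gene. The choice used coordinates only and no methylation value. Isolation here counts positions listed in the deposited data, not all CpGs of the genome, so a position with few listed neighbours can still lie among CpGs that were not measured. Methylation was measured by reduced representation bisulfite sequencing, in which bisulfite conversion separates methylated from unmethylated cytosines in fragments enriched for CpG-rich DNA. DNA came from brain homogenate of mice enriched for microglia, which are phagocytes that live in the brain. HEM mice carried full-length human wild-type α-synuclein, driven by the murine Thy-1 promoter, and the transgene is X-linked, with WT mice as their controls. Both genotypes have the B6D2F1/J background, although this strain entry is missing from the label of 1 library, HEM replicate 3 of 13 months, and the sex of the animals is not given in the sources used here.

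The groups were HEM at 13 months with 8 libraries, WT at 13 months with 4, HEM at 3 months with 4 and WT at 3 months with 4. The design text counts 3 WT mice of 3 months while 4 libraries carry that label, and all 4 were used. Replicate numbers are those of the labels. Nothing in the deposited values gives the read depth behind a position, so no interval of a single percentage is given and its precision is unknown. Age coincides with separately deposited sets of libraries, so age and library set cannot be told apart in any comparison of 13 with 3 months. The Thy-1 promoter is known for expression in neurons, and the deposited values hold no RNA with which the enrichment for microglia could be checked. Methylation averaged over and around 11 microglial marker genes was 48.2% ± 5.09 in HEM at 13 months, 51% ± 5.16 in WT at 13 months, 53.4% ± 3.95 in HEM at 3 months and 52.3% ± 2.82 in WT at 3 months (SD, n = 8, 4, 4 and 4). The same average over 10 neuronal marker genes lay between 14.0% and 16.2% in the 20 libraries. In bulk DNA a change in the mix of cell types and a change of methylation within a cell type cannot be told apart.

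In mammals the cytosine of a CpG can carry a methyl group that is copied onto the new strand after DNA replication. CpGs that stand alone in intergenic DNA are mostly methylated in somatic tissue, whereas dense clusters of CpGs at promoters, called CpG islands, are mostly unmethylated. In bulk tissue an intermediate level means that some of the DNA copies measured carried the methyl group and others did not.

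A total of 272 of the isolated positions lay within the windows of RefSeq sequence around gene starts, 250 bases before to 50 after, on build GRCm38.p6. These windows belonged to 163 genes. All 272 positions fell on a CG in that sequence, and 205 of them (75.4%) fell on the CG of CCGG, a palindrome read alike on both strands, which is the cutting site of MspI, the enzyme commonly used for this assay. CCGG was present somewhere in 52.8% of all 32851 mouse promoter windows. That is a share of windows and not of measured positions, so these shares are not comparable. The mean level of the 272 positions was 53.9%, against 75.2% for all isolated positions, with 68 of them at 80% or above and 47 below 20%. A set of 4 examples shows the range of levels and of spread found among these positions, each with the measured CG in capitals and its flanking bases, written 5′ to 3′ on the strand of the gene.
Gm15411: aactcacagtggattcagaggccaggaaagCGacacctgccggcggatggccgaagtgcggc
Gm33714: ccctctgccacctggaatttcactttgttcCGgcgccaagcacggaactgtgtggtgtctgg
4930406D18Rik: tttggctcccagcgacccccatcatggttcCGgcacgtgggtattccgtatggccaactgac
Gm33100: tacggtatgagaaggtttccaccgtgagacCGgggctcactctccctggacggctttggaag

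The position before the long non-coding RNA gene Gm15411 (chr5:149006903-149006964, minus strand) was the least methylated of the 272, with a mean of 0.171% and a highest library of 1.59%. The sequence at Gm33714 (chr5:144479959-144480020, minus strand) held the position closest to 50%, with a mean of 50.04% and libraries from 32.2% to 73.1%. The position at 4930406D18Rik (chr3:100426320-100426381, plus strand) was the most methylated, at 98.3%, with libraries from 94.4% to 100%. The position 3 bases before the start of Gm33100 (chr5:96879309-96879370, plus strand) varied most, with a mean of 67.4%, an SD of 27.8 points over the 20 libraries and values from 9.49% to 98.2%. In this sequence the measured CG belongs to a CCGG, as it does at Gm33714 and 4930406D18Rik, whereas at Gm15411 it does not. The windows of the positions below 20% held a median of 7 CGs and those of the positions at 80% or above a median of 5. Sequence of the other isolated positions was not analysed here.

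Isolated positions outside coding genes were mostly methylated. Averaged over the 20 libraries, their mean level was 75.2% ± 1.40 (SD, n = 20 libraries) and the median position stood at 84.0%, against a mean of 27.9% ± 0.574 and a median of 0.913% for the 1043652 other autosomal positions. A level of 80% or above was found at 58.1% of the isolated positions, 20% to 80% at 37.4% and below 20% at 4.48%, whereas 20.3%, 15.5% and 64.2% of the other positions fell into these classes. The isolated set was higher in 20 of 20 libraries, with library means from 71.1% to 77.4% against 26.4% to 29.0% for the other positions. Levels also followed the density of listed positions: isolated positions inside or within 1 kb of coding genes averaged 73.5%, dense positions outside coding genes 53.2%, and dense positions in or near coding genes 19.1%. High levels were shared between animals at many positions, 18013 (27.8%) of which were at 80% or above in all 20 libraries. Another 1353 (2.09%) were below 20% in all 20 libraries, and 6849 (10.6%) were between 20% and 80% in all of them.

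**Figure D1:**
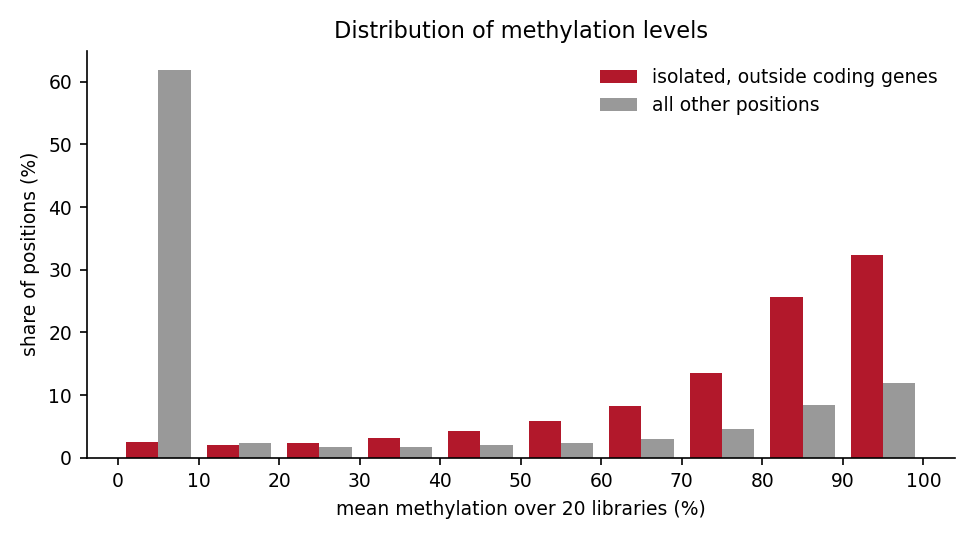
Share of positions (%) in each 10-point class of mean methylation over the 20 libraries, for isolated positions outside coding genes (red) and all other autosomal positions (grey). The class of 90% to 100% held 32.4% of the isolated positions and 11.9% of the others, and the class of 0% to 10% held 2.51% and 61.9%.

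Within the isolated set, levels followed how alone a position was. Positions with no other listed position within 500 bp (9039) averaged 80.1%, those with 1 (25668) 75.3% and those with 2 (30171) 73.7%. Positions with 3 listed neighbours, just outside the limit of the definition, averaged 72.8%. Distance to the nearest coding gene ordered the levels as well: 79.0% at over 100 kb (20477 positions), 74.3% at 10 to 100 kb (30440) and 71.8% at 1 to 10 kb (13961). Both orders held in 20 of 20 libraries, with gaps between adjacent distance classes of 4.24 to 5.26 and 2.33 to 2.67 points and gaps between adjacent neighbour classes of 4.30 to 5.41 and 1.04 to 2.01 points. The classes combined without changing either order, and the positions farthest on both counts averaged 83.5% while those nearest averaged 70.2%.

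**Figure D2:**
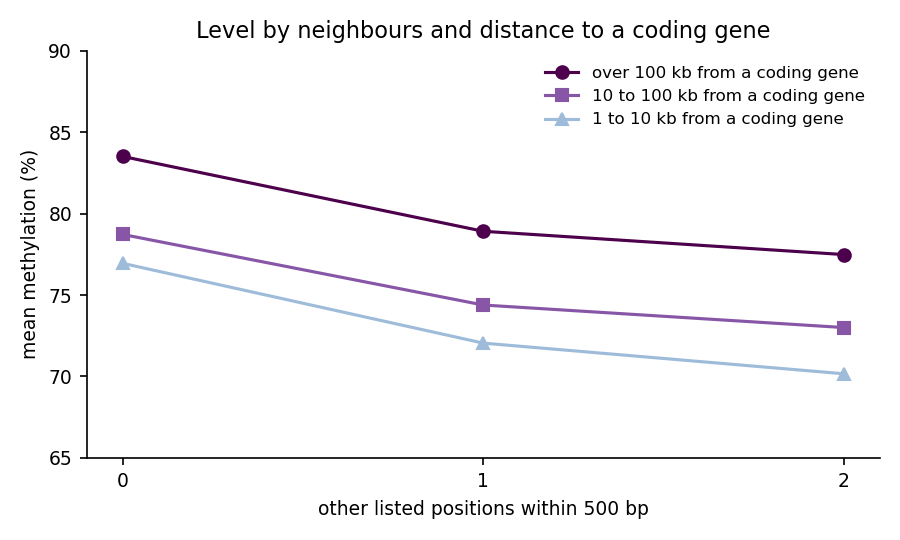
Mean methylation (%) of isolated positions over 20 libraries against the number of other listed positions within 500 bp, in 3 classes of distance to the nearest coding gene. Every line falls from 0 to 2 neighbours, and the line for over 100 kb, from 83.5% to 77.5%, stands above the others at each point.

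The annotation around the positions went with smaller differences. The 11955 positions inside a non-coding gene averaged 72.6%, against 75.8% for the 52923 inside no gene, and those in long non-coding RNA genes (10364) averaged 71.4%. Positions whose nearest coding gene encodes an olfactory or vomeronasal receptor, which detect odours and pheromones (1259 positions), averaged 81.7%, and those nearest to a protocadherin or cadherin gene, encoding adhesion molecules of neurons and other cells (968), averaged 79.9%. Positions nearest to a zinc finger gene of the Zfp series (1184) averaged 75.4%, close to the 75.04% of the remaining 61467. The receptor and cadherin classes stood above the remaining positions in 20 of 20 libraries, whereas the Zfp class did so in 17 of 20. The positions farthest from any coding gene were chr18:28087085 and chr18:28087159, 2178530 and 2178456 bp from Pik3c3, a lipid kinase of autophagy, with means of 97.5% and 90.5%, and chr14:82189542, 2166401 bp from Olfm4, at 90.9%. At the other end, chr5:135745173 and chr12:116391936, each 1001 bp from a coding gene (Tmem120a and Esyt2), had means of 50.7% and 86.8%. Just outside the limit, at 1000 bp, chr2:30207295 by Kyat1 had a mean of 89.2% and chr6:120039695 by Wnk1 was at 0% in all 20 libraries.

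Libraries of 1 group differed at a typical isolated position by an SD of 5.84 points in HEM at 13 months, 5.95 in WT at 13 months, 5.49 in HEM at 3 months and 5.48 in WT at 3 months (medians over positions). This median depends on the number of libraries, 8 in the first group and 4 in each of the others. With 1 library left out it was 5.38 to 5.56 in WT at 13 months. The group of 8 libraries can therefore not be compared in spread with those of 4. The spread was widest at intermediate levels, where the median within-group SD was 11.4 points for positions of 40% to 50% and 3.93 for those of 90% to 100%. At a mean of 20% to 80% the isolated positions had a within-group SD of 9.56 points, against 9.86 for other positions, and the share with an SD of 20 points or more over all libraries was 1.67% and 1.68%. The wider spread over all positions, with a median of 6.38 points for isolated and 1.48 for other positions, thus stood beside a different mix of levels. Isolated positions measured on both strands of 1 CpG, that is 1 bp apart, differed in mean level by a median of 1.58 points (265 pairs). Pairs 2 to 50 bp apart differed by 6.22 points, pairs 51 to 500 bp apart by 8.48, and pairs over 500 bp to 5 kb apart by 16.5, close to the 16.9 of pairs over 5 kb to 50 kb apart.

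A set of 414 isolated positions had an SD of 20 points or more over the 20 libraries. Of these, 185 (44.7%) had at least 1 library at 10% or less and at least 1 at 90% or more, which held for 6 of the 23880 isolated positions with a mean of 20% to 80% and a smaller SD. Among positions with a mean of 20% to 80%, all 3 of the largest SD were on chromosome 3, and the first pair described here lay 2.21 Mb apart. At chr3:69184287, 38132 bp from Arl14, the 8 HEM libraries of 13 months ran from 0% over a median of 49.4% to 92.9%, and WT replicates 1, 2, 6 and 7 of 13 months were at 97.6%, 100%, 0% and 42.9%. At 3 months HEM replicates 1, 2, 3 and 7 were at 0%, 0%, 96.6% and 0%, and WT replicates 1, 3, 4 and 5 at 97.2%, 49.1%, 0% and 0%. Libraries near 0%, near 50% and near 100% thus occurred within groups, and the groups overlapped.

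The second position, chr3:71395835, followed the same libraries with a Pearson r of 0.986 over the 20 libraries: HEM replicate 3 of 3 months was at 98.6% with the other 3 at 0%, and WT replicates 1, 2, 6 and 7 of 13 months at 96.4%, 93.5%, 0% and 41.5%. The third, chr3:139821895, 111596 bp from Stpg2, was far from both and did not follow them (r of -0.0570 and -0.103). Its median was 0.748% in HEM at 13 months, 95.2% in WT at 13 months, 98.7% in HEM at 3 months and 96.9% in WT at 3 months. In HEM at 13 months, however, replicates 3 and 8 were at 82.2% and 78.8%, so the groups overlapped there too. Over all pairs of the 414 positions the median absolute r was 0.840 for 138 pairs over 1 kb to 1 Mb apart, 0.567 for 384 pairs over 1 to 5 Mb apart, 0.433 for 1017 pairs over 5 to 20 Mb apart, 0.265 for 3496 pairs farther apart on 1 chromosome and 0.191 for 80420 pairs on different chromosomes. All pairs share the same 20 libraries, and this grouping was made after the values had been seen. The steadiest position of intermediate level was chr3:136505693, 164021 bp from Ppp3ca, a catalytic subunit of calcineurin (SD 2.91, mean 77.9%). Next were chr3:69252916, 29298 bp from Arl14 (SD 3.22, mean 79.7%), and chr5:61212085, 596758 bp from G6pd2 (SD 3.32, mean 66.5%).

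Chromosomes differed in the mean of their isolated positions, and those at the ends of the order kept their places in nearly all libraries. Chromosome 11 was the lowest, at 71.5% ± 1.504 (SD, n = 20 libraries; 3725 positions), and ranked last of the 19 autosomes in 20 of 20 libraries. Chromosome 19 followed at 73.3% ± 1.51 (1594 positions), with ranks 17 to 18. Chromosome 3 was the highest, at 77.7% ± 1.35 (3940 positions), ranking 1 or 2 in every library, with chromosome 18 at 77.3% and chromosome 16 at 77.2% next, neighbours that changed places between libraries. Of the isolated positions, 39.1% on chromosome 3 lay over 100 kb from a coding gene, against 21.2% on chromosome 11. Across the 19 chromosomes this share and the mean level went together (Pearson r 0.747, Spearman rho 0.726, a description over chromosomes that share all libraries). With the distance classes weighted alike on every chromosome, chromosome 3 stood at 77.3% and chromosome 11 at 72.5%. Other positions did not show the same order of chromosomes (r 0.242, rho 0.126).

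**Figure D3:**
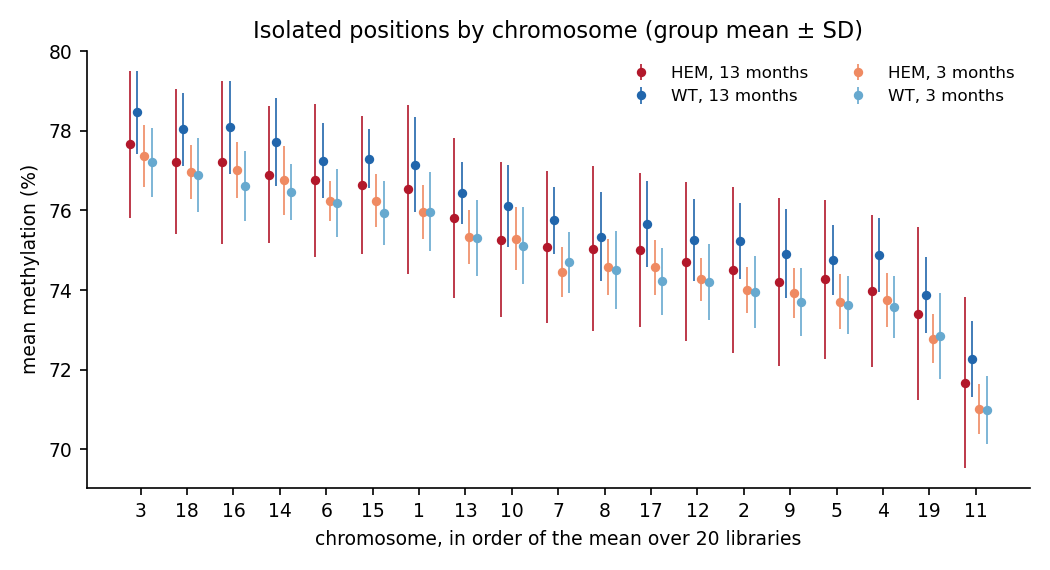
Mean methylation (%) of isolated positions on each autosome, in order of the mean over 20 libraries, as the mean ± SD of libraries for HEM at 13 months (n = 8), WT at 13 months (n = 4), HEM at 3 months (n = 4) and WT at 3 months (n = 4). Chromosome 3 is the highest and chromosome 11 the lowest, and the groups overlap on each chromosome.

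In windows of 1 Mb with at least 5 isolated positions, of which there were 2277, the median level was 77.9% and the middle 90% of windows lay between 62.2% and 88.2%. The lowest window was chr10:86000001-87000000, with a mean of 13.2% over 6 positions and libraries from 8.89% to 18.5%. It holds 10 coding genes, among them Syn3, a synapsin of synaptic vesicles, and Timp3, an inhibitor of metalloproteinases. The window chr6:129000001-130000000 averaged 37.2% over 11 positions and holds 26 coding genes, mostly of the Clec and Klr families of lectin-like receptors of immune cells. The highest window was chr12:57000001-58000000, at 94.2% over 6 positions, with Foxa1, a transcription factor, among its 5 coding genes.

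The first comparison asked whether isolated positions differed between HEM and WT mice at 13 months. The mean of the isolated positions ran from 71.1% over a median of 75.3% to 77.4% in the 8 HEM libraries, against 76.6%, 76.8%, 75.8% and 74.7% in WT replicates 1, 2, 6 and 7. The groups overlapped: HEM held both the highest and the lowest library. HEM averaged 75.3% ± 1.97 and WT 76.0% ± 0.967 (SD, n = 8 and 4), a difference of -0.663 points that was smaller than the spread of either group. Replicate 8 of HEM was the lowest library of the age on all 19 chromosomes, and differed by -4.63 points from the median of the other 11. Its isolated positions were low at all levels, with a difference of -9.42 points where the other 11 had a median of 20% to 50% and of -3.45 points where they had 80% or more. Other kinds of positions were lower in it as well, with differences of -4.73 points for isolated positions in or near coding genes, -3.40 for dense positions outside coding genes and -1.19 for dense positions in or near them. Without replicate 8 the genotype difference was -0.0699 points. Methylation over the microglial marker genes in that library, 44.9%, lay inside the range of the other HEM libraries of that age, 41.6% to 55.2%. For the neuronal and other leukocyte markers that library stood just above the lowest of the others, at 14.717% against 14.713% and 57.01% against 56.96%. For the remaining marker lists it was the lowest HEM library of 13 months, at 33.7% for astrocytes, 35.7% for the oligodendrocyte lineage and 41.5% for vessels, where the other HEM libraries of 13 months began at 34.9%, 36.4% and 46.4%. Their part in the genotype difference was not tested.

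**Figure D4:**
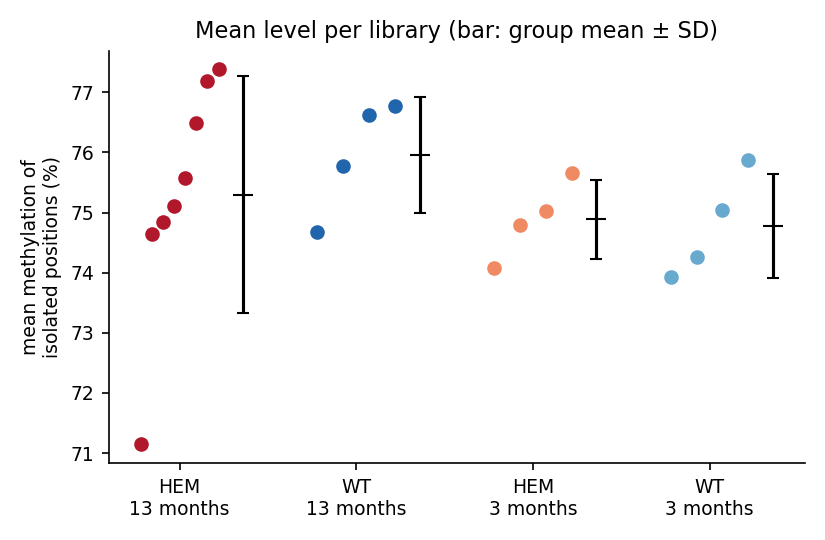
Mean methylation (%) of the 64878 isolated positions in each library (points, in order of value within a group) with the group mean ± SD beside them (n = 8, 4, 4 and 4). Replicate 8 of HEM at 13 months, at 71.1%, stands below all other libraries, and the groups overlap.

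Position by position, no isolated position passed at 13 months. Of 56599 isolated positions with a mean of 5% to 95%, 0 were called by limma with an adjusted p under 0.05 and a difference of at least 10 points, where percent called over all 453891 positions was 0.000881 (0.00022 higher and 0.000661 lower in HEM). An unadjusted p under 0.05 was found at 5.82% of the isolated and 5.82% of all positions. Groups that did not overlap and differed by at least 10 points were found at 38 isolated positions higher in HEM (0.0671%), against 0.117% of all autosomal positions of such a mean, and at 82 lower in HEM (0.145%), against 0.114%. Without WT replicate 1 limma called 8 isolated positions, without replicate 7 it called 4, and without replicate 2 or 6 it called 1 each. Among isolated positions higher in HEM, those of smallest p had Arhgap40, Pkdcc and Insig2 as their nearest coding genes. Among those lower in HEM the nearest coding genes were Tbx3, Neto1 and Ptprd. The distances ran from 2590 to 678695 bp.

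At chr5:119462086, 208448 bp from Tbx3, a transcription factor of development, HEM libraries ran from 66.0% over a median of 84.2% to 94.6%, against 98.1%, 100%, 100% and 100% in WT. The groups did not overlap, but the difference of -17.1 points had a limma adjusted p of 0.0903. At chr18:85716120, far from Neto1, a subunit associated with glutamate receptors, HEM averaged 76.9% ± 7.61 and WT 97.3% ± 2.34 (n = 8 and 4; limma adjusted p = 0.134). At chr4:78698561, far from the phosphatase gene Ptprd, HEM averaged 85.2% ± 4.39 and WT 98.1% ± 3.70 (n = 8 and 4; limma adjusted p = 0.203). On the higher side, chr17:83198340 near Pkdcc averaged 69.6% ± 18.2 in HEM and 16.6% ± 25.2 in WT (n = 8 and 4; limma adjusted p = 0.420), with WT replicate 7 at 54.2% inside the HEM range. At chr2:158553218 near Arhgap40 HEM averaged 11.9% ± 4.91 and WT 1.25% ± 2.50 (n = 8 and 4; limma adjusted p = 0.323). At chr1:121223240, 81113 bp from Insig2, a regulator of sterol synthesis, they averaged 93.4% ± 2.09 and 81.2% ± 1.14 (n = 8 and 4; limma adjusted p = 0.439).

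Summed over windows, 609 of 2277 windows (26.7%) were higher in HEM at 13 months, with a median difference of -0.717 points, and 0 of the 19 chromosomes were. Percent called over windows and over chromosome means was 0.0 by limma, whose smallest adjusted p among isolated windows was 0.999 and among chromosomes 0.995, and 92 isolated windows (4.04%) but 0 chromosomes had an unadjusted p under 0.05, against 2.53% of windows of all kinds. Without replicate 8 of HEM, 45.5% of windows and 7 of 19 chromosomes were higher in HEM. The window of smallest p was chr12:52000001-53000000, higher in HEM (77.2% ± 1.11 in HEM, 73.3% ± 2.12 in WT, n = 8 and 4; 23 positions; limma adjusted p = 0.999), which holds Akap6, a kinase anchoring protein. A window lower in HEM was chr4:90000001-91000000, with Zfp352 as its coding gene (83.9% ± 1.28 in HEM, 87.4% ± 2.27 in WT, n = 8 and 4; 12 positions; limma adjusted p = 0.999).

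At 3 months the genotype means lay closer together than at 13 months with all libraries. Without HEM replicate 8 the difference at 13 months, -0.0699 points, was the smaller one. HEM replicates 1, 2, 3 and 7 had mean levels of 75.7%, 75.03%, 74.8% and 74.1%, against 75.1%, 74.3%, 75.9% and 73.9% in WT replicates 1, 3, 4 and 5. All HEM libraries lay inside the WT range, and the means were 74.9% ± 0.657 and 74.8% ± 0.867 (SD, n = 4 each), a difference of 0.109 points that ranged from -0.173 to 0.475 when 1 library was left out. Of 56700 isolated positions tested 0 were called by limma, as over all 492283 positions (percent called 0.0), and an unadjusted p under 0.05 was found at 3.84% of the isolated and 4.53% of all positions. Groups without overlap and at least 10 points apart were found at 361 positions higher in HEM (0.637%), against 0.6% of all positions of a mean of 5% to 95%, and at 329 lower in HEM (0.58%), against 0.672%. These shares were close to those of the whole table. Without WT replicate 1 limma called 3 isolated positions.

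The isolated position of smallest p at 3 months was chr4:133826289, where each of the 4 HEM libraries had 100%, against 94.3%, 87.5%, 92.3% and 84.2% in WT (limma adjusted p = 0.132). Next in that direction were chr6:59335584 near Gprin3, a protein that binds G protein subunits, with means of 98.8% ± 1.36 in HEM and 82.3% ± 4.41 in WT, and chr3:6422955, with 98.3% ± 3.33 and 79.99% ± 9.22 (n = 4 each; limma adjusted p = 0.453 and 0.931). Lower in HEM were chr11:109410657 near Gna13, a G protein subunit, at 88.8% ± 8.47 in HEM and 100% in every WT library, and chr2:97676815 near Lrrc4c, a synaptic adhesion molecule, at 87.5% ± 2.98 and 99.1% ± 1.85 (n = 4 each; limma adjusted p = 0.487 and 0.638). At chr11:119937081, 2835 bp from Baiap2, an adaptor of the actin cytoskeleton, HEM libraries were at 8.33%, 9.76%, 9.23% and 10.9% and WT libraries at 23.9%, 34.2%, 28.05% and 28.9%. These groups were far apart relative to their spread, with a limma adjusted p of 0.957. Windows were higher in HEM in 55.2% of cases and chromosomes in 16 of 19, and these counts turned on single libraries. They were 46.7% and 4 of 19 without HEM replicate 1, 49.2% and 7 of 19 without WT replicate 3, 46.1% and 4 of 19 without WT replicate 5, and 66.3% and 19 of 19 without WT replicate 4. Limma called 0 windows and 0 chromosomes (percent called 0.0; smallest adjusted p 0.999 and 0.991; 110 isolated windows, or 4.83%, and 0 chromosomes with an unadjusted p under 0.05, against 2.94% of windows of all kinds). The windows of smallest p were chr5:141000001-142000000 (70.9% ± 1.10 in HEM, 67.5% ± 1.04 in WT) and chr7:73000001-74000000 (73.3% ± 0.493 in HEM, 75.9% ± 0.965 in WT, n = 4 each; limma adjusted p = 0.999 in both).

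**Figure D5:**
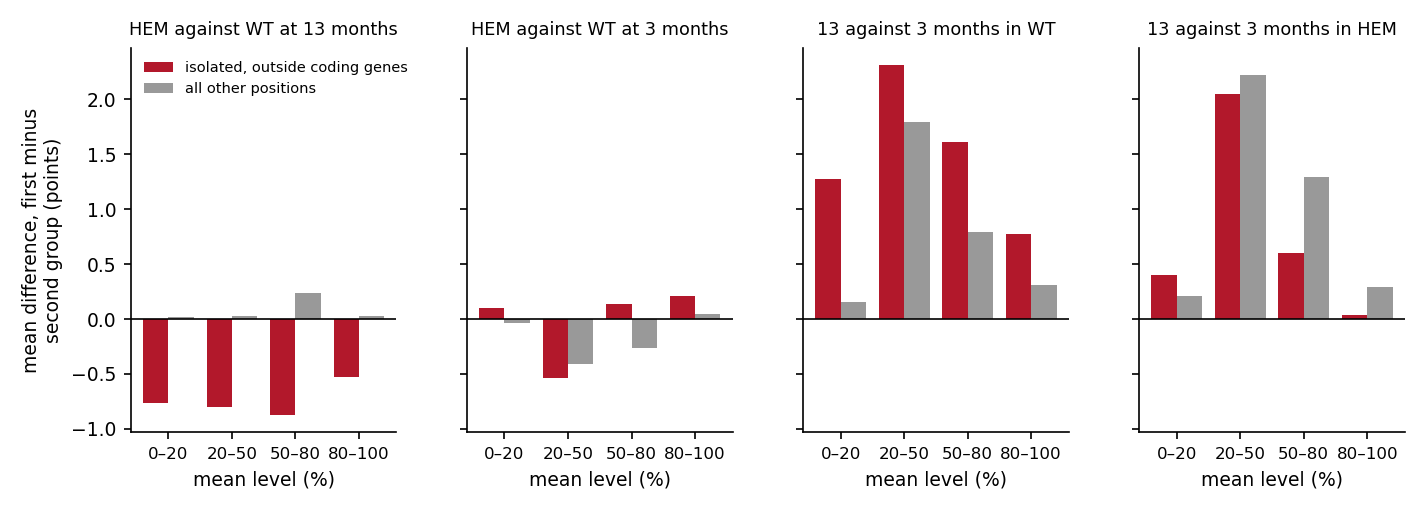
Mean difference in methylation (points) between the first and the second group named above each panel, over isolated positions (red) and all other positions (grey) in 4 classes of mean level over the 20 libraries. In WT, 13 months stood above 3 months in every class, by 2.31 points at 20% to 50%, and without HEM replicate 8 of 13 months the isolated bars of HEM against WT at 13 months shrink to between -0.314 and 0.556.

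Between ages, isolated positions of WT mice were higher at 13 than at 3 months on average. The 4 WT libraries of 13 months had means of 76.6%, 76.8%, 75.8% and 74.7%, against 75.1%, 74.3%, 75.9% and 73.9% in the 4 WT libraries of 3 months. The ages overlapped, since replicate 7 of 13 months lay below 2 libraries of 3 months. The difference was 1.18 points (76.0% ± 0.967 against 74.8% ± 0.867, n = 4 each), and between 0.899 and 1.61 when 1 library was left out. It was found at each level of methylation, with 1.28 points below 20%, 2.31 at 20% to 50%, 1.62 at 50% to 80% and 0.776 at 80% or above. The other positions differed by 0.154, 1.79, 0.797 and 0.314 points in the same classes.

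Of 2277 windows 1866 (81.9%) were higher at 13 months, as were 83.2% of the windows of other positions, and 19 of 19 chromosomes, by 0.837 to 1.47 points. No isolated window and no chromosome was called by limma (percent called 0.0215 over all windows and 0.0 over chromosome means; smallest adjusted p 0.122 and 0.186; 275 isolated windows, or 12.1%, and 8 of 19 chromosomes with an unadjusted p under 0.05, against 8.33% of windows and 21.1% of chromosome means of all kinds). Without WT replicate 7 of 13 months, limma called all 19 chromosomes (smallest adjusted p 0.0114) and 2 windows, so the count turned on 1 library, and the 19 chromosome means share the same libraries. The window of smallest p was chr6:59000001-60000000, with means of 85.1% ± 0.536 at 13 months and 82.0% ± 0.397 at 3 months (34 positions, n = 4 each; limma adjusted p = 0.122), holding Fam13a, Tigd2 and Gprin3. The next, chr17:18000001-19000000, with 85.3% ± 0.863 and 80.4% ± 0.961, holds 9 coding genes of the vomeronasal and formyl peptide receptor families among its 10. In the lower direction the smallest p was at chr2:64000001-65000000 (83.5% ± 0.923 at 13 months, 86.5% ± 1.52 at 3 months; limma adjusted p = 0.408).

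Of 56322 isolated positions tested in WT, limma called 5, with 3 higher and 2 lower at 13 months (percent called over all positions 0.0183, with 0.0167 higher and 0.00158 lower). In each of the 5, all libraries of 1 age were at exactly 100%. The widest was chr8:26704890, 272446 bp from the zinc finger gene Zfp703, at 100% in all 4 libraries of 13 months and at 72.2%, 80%, 84.1% and 90% in those of 3 months, a difference of 18.4 points (limma adjusted p = 0.00684). At chr16:60758770, far from Epha6, an ephrin receptor, the libraries of 13 months were at 100% and those of 3 months at 89.0%, 80%, 87.4% and 90.9% (limma adjusted p = 0.00935). At chr6:127376575, far from Parp11, an ADP-ribosyltransferase, the means were 100% and 89.2% ± 1.72 (n = 4 each; limma adjusted p = 0.00721).

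The 2 positions called lower at 13 months in WT were chr6:49488135, 18629 bp from Stk31, with libraries at 82.6%, 94.9%, 82.6% and 78.9% at 13 months and 100% in all 4 of 3 months (limma adjusted p = 0.0363), and chr5:110063681, at 87.5%, 90%, 89.5% and 89.5% at 13 months and 100% at 3 months (limma adjusted p = 0.00638). The call at chr6:49488135 was made in 1 of the 8 fits that left out 1 library, and the one at chr8:26704890 in 8 of 8. A value of 100% in all libraries leaves no spread within that age. Between 3 and 17 isolated positions were called when 1 library was left out, with 17 without WT replicate 6 of 13 months, 15 without replicate 2 and 3 without replicate 1, 3 or 4 of 3 months. On the percent scale, and with an offset of 5 points, 0 isolated positions were called. Not called in the lower direction were chr11:109410657 near Gna13 (87.5% ± 8.45 at 13 months, 100% at 3 months; limma adjusted p = 0.141), chr11:7844603 far from Tns3, a focal adhesion protein (86.6% ± 5.71 and 99.0% ± 1.92; limma adjusted p = 0.483), and chr8:89147232, 103070 bp from Sall1, a transcription factor of microglia (n = 4 each). At the last of these the libraries of 13 months were at 0%, 38.5%, 0% and 0% and those of 3 months at 46.9%, 86.8%, 98.7% and 73.3%, without overlap, a difference of -66.8 points with a limma adjusted p of 0.613. In HEM the same position ran from 2.47% to 82.3% at 13 months and from 29.5% to 98.0% at 3 months. Without overlap and by at least 10 points, 674 isolated positions were higher at 13 months in WT (1.20%), against 0.983% of all positions of a mean of 5% to 95%, and 236 were lower (0.419%), against 0.499%.

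In HEM the mean of isolated positions ran from 71.1% over a median of 75.3% to 77.4% at 13 months, against 75.7%, 75.03%, 74.8% and 74.1% at 3 months, with overlap on both sides. The difference was 0.409 points (75.3% ± 1.97, n = 8, against 74.9% ± 0.657, n = 4), and 1.003 points without replicate 8 of 13 months, which moved it by more than any other library. By level it was 0.404 points below 20%, 2.05 at 20% to 50%, 0.604 at 50% to 80% and 0.0381 at 80% or above, and without replicate 8 it was 0.860, 3.41, 1.58 and 0.330 points. The other positions differed by 0.212, 2.22, 1.29 and 0.291 points in the same classes. Without replicate 8 they differed by 0.257, 3.43, 2.20 and 0.501 points. Isolated positions thus rose by less than the others in all classes but the lowest. Windows were higher at 13 months in 59.4% of cases, against 77.5% of windows of other positions. Without replicate 8 the share of isolated windows was 72.7%, and that of other windows was not recomputed. Of the chromosomes 18 of 19 were higher, and 19 of 19 without replicate 8. Limma called 0 windows and 0 chromosomes (percent called 0.0 in both; smallest adjusted p for isolated positions 0.106 and 0.7997; 151 isolated windows, or 6.63%, and 0 chromosomes with an unadjusted p under 0.05, against 6.35% of windows of all kinds). The windows of smallest p were chr17:33000001-34000000 (78.0% ± 0.911 at 13 months, 73.9% ± 1.14 at 3 months; 27 positions; limma adjusted p = 0.106) and, lower at 13 months, chr2:43000001-44000000 (66.4% ± 4.79 and 79.6% ± 5.37; 9 positions; n = 8 and 4; limma adjusted p = 0.595), with Kynu, an enzyme of tryptophan breakdown, and Arhgap15.

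Of 56913 isolated positions tested in HEM, limma called 16 (9 without HEM replicate 1 of 3 months), with 11 higher and 5 lower at 13 months (percent called over all positions 0.0305, with 0.0258 higher and 0.00471 lower). The count was 3 on the percent scale, 7 with unmoderated variances and 7 without the filter on the mean. Of the 16, 11 lay on chromosome 17, which held 4.29% of the isolated positions tested, and 10 of these 11 were higher at 13 months. The split by chromosome of all positions called in this comparison is not given here, so this share cannot be called particular to isolated positions. An unadjusted p under 0.05 was found at 8.37% of the isolated and 10.4% of all positions. At chr17:47705340, 1054 bp from Frs3, an adaptor of growth factor receptors, HEM libraries ran from 44.9% over a median of 65.4% to 94.4% at 13 months and were all at 0% at 3 months (limma adjusted p = 8.63e-05). At chr17:23965659 near the protease gene Prss30 they ran from 38.6% to 79.2% at 13 months and were at 0% at 3 months (limma adjusted p = 3.66e-06). Positions near Cacna1h, a calcium channel subunit (chr17:25437439; 62.5% ± 20.7 at 13 months, 0% at 3 months), near Zfp955b (chr17:33313378; 55.6% ± 22.5 and 1.89% ± 3.79) and 75479 bp from Tnfrsf21, a death receptor (chr17:43164667; 52.0% ± 26.3 and 0%; n = 8 and 4), were higher at 13 months as well, with limma adjusted p values of 0.000421, 0.00966 and 0.00465.

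The median of these 10 positions was 0% in every library of 3 months of either genotype, although single positions reached 20%. At 13 months the median was 77.5% and 77.1% in HEM replicates 3 and 8, and 35.6% to 43.9% in the other 6 HEM libraries of 13 months. In WT of 13 months it was 45.4%, 79.5%, 0% and 83.5% in replicates 1, 2, 6 and 7, so WT replicate 6 was at the level of the libraries of 3 months. The other position called on chromosome 17, chr17:34171202, 10828 bp from Psmb9, a subunit of the immunoproteasome, was lower at 13 months (56.1% ± 14.1 at 13 months, 93.0% ± 6.45 at 3 months, n = 8 and 4; limma adjusted p = 0.0414).

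The 4 other positions called lower at 13 months in HEM lay on chromosomes 1, 3, 6 and 16. At chr6:31209582, inside the long non-coding RNA gene Lncpint, HEM libraries ran from 20.4% over a median of 41.1% to 62.7% at 13 months, against 83.3%, 86.8%, 86.0% and 76.2% at 3 months. The ages did not overlap, with a difference of -41.6 points (limma adjusted p = 0.0303). At chr16:3385026, far from the olfactory receptor gene Olfr161, the means were 52.1% ± 4.52 at 13 months and 88.3% ± 7.30 at 3 months (n = 8 and 4; limma adjusted p = 0.0292). Smaller losses were called at chr3:62879372, far from the receptor gene Gpr149 (73.3% ± 10.2 and 97.4% ± 2.65; limma adjusted p = 0.0237), and at chr1:83214678 near Daw1, a factor of dynein assembly (82.1% ± 7.77 and 98.9% ± 2.27; n = 8 and 4; limma adjusted p = 0.0140). The calls on chromosomes 6 and 16 were made in 4 of the 12 fits that left out 1 library, and that near Psmb9 in 3 of 12. In WT these 4 positions averaged 51.9%, 70.7%, 81.5% and 85.7% at 13 months and 60.1%, 73.5%, 92.9% and 86.9% at 3 months, differences that were not called. Ages without overlap and at least 10 points apart were found at 147 isolated positions higher at 13 months in HEM (0.258%), against 0.421% of all positions of a mean of 5% to 95%, and at 121 lower (0.213%), against 0.261%.

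An interaction term asked if HEM and WT differed by unequal amounts at 13 and 3 months. Of 57041 isolated positions limma called 1, and it was the only call among 446428 positions (percent called 0.000224), with an unadjusted p under 0.05 at 5.98% of the isolated and 6.28% of all positions. At chr14:55047326, 12942 bp from Zfhx2, a zinc finger homeobox gene, HEM libraries of 13 months ran from 88.2% over a median of 94.9% to 97.7% and all 4 WT libraries of 13 months were at 100%. At 3 months HEM replicates 1, 2, 3 and 7 were at 98.1%, 97.1%, 98.0% and 98.1% and WT replicates 1, 3, 4 and 5 at 86.4%, 95.5%, 90.5% and 80%. HEM thus stood below WT at 13 months and above it at 3 months without overlap at either age, and the difference between the 2 genotype differences was -16.1 points (limma adjusted p = 0.0304). It was called in 6 of the 18 fits that left out 1 library and in which the position was still tested, and not on the percent scale, with an offset of 5 points or with unmoderated variances. Other positions of small p in the interaction were not called. They were chr4:133826289 and chr15:96040909, 65437 bp from Ano6 (limma adjusted p = 0.376 in both). In the opposite direction they were chr1:121223240, chr13:94703929, 84991 bp from Tbca, and chr2:169461480, 171029 bp from Tshz2 (limma adjusted p = 0.376, 0.633 and 0.633). Among windows 0 were called for the interaction, and 124 isolated windows (5.45%) had an unadjusted p under 0.05, against 3.63% of windows of all kinds.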

How the data were processed

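The authors deposited percent methylation per CpG position for 20 libraries, aligned to mm10 and called with tools that include Bowtie2 and methylKit per the submitters' processing notes, whose versions are not given in the sources used here. No read counts accompany the deposited percent values, so depth is unknown and coverage cannot be weighed. Another 21 value columns of whole-series tables were not used. Positions present in all libraries of both ages on chromosomes 1 to 19 were classed by their listed neighbours within 500 bp and by distance to RefSeq coding genes.

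Percentages were tested with limma 3.58.1 (R 4.3.3) on log2((percent + 1)/(100 - percent + 1)), over positions with a mean of 5% to 95% in the compared libraries, chromosomes X and Y included. P-values were adjusted by Benjamini-Hochberg over all positions tested, and a call needed an adjusted p under 0.05 and 10 points (no minimum for the interaction). Means over 1 Mb windows with at least 5 positions (call at 5 points) and over chromosomes were tested on the percent scale. Tests were two-sided, were tested on simulated data, and were fitted on the groups compared or, for the interaction, on all 4. Python 3.11.15 (numpy 2.4.6, pandas 2.3.3, matplotlib 3.10.9) made the summaries.

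Named positions were all those called if 5 or fewer in a direction, else the 5 of largest difference, with the 3 of smallest p where fewer than 3 were called, the 3 of largest and of smallest SD at a mean of 20% to 80%, those nearest the limits of the definition, and the 3 farthest from a coding gene. For windows the rule took the 3 of smallest p in each direction, of which only some are described, and 1 position that the rule names is not reported here. Members and lists were chosen with earlier results of these data known. Alternatives were the percent scale, an offset of 5 points, other filters, unmoderated variances, averaged strands, other definitions of isolation, a replicate block and the omission of single libraries. Deviations of same-numbered libraries correlated by less than 0.1 in at least 1 pair of each comparison, so the main fits did not treat the numbers as pairs. Such a limit over few pairs cannot settle whether the libraries were paired. Libraries are not stated to come from separate animals throughout, so p-values measure only the spread between these samples. The closest pair of libraries differed by a mean of 6.22 points per position, so no library was a copy of the values of another. Because read depth is unknown, this difference cannot show whether any libraries came from the same animal.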

Additional observations from a re-analysis of the deposited data

Results flagged for a closer look

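Of 115 groups of 4 to 8 libraries examined, 17 (14.8%) held a library far from the others. Chance marks about 1 in 20 groups when they are not chosen for their values, whereas the positions here were mostly named for their differences or spread and the chromosome means share libraries, so the 2 rates are not comparable. HEM replicate 8 of 13 months accounted for the mean of the isolated positions, 71.1% where the other HEM libraries of that age had 74.6% to 77.4%, and for the means of chromosome 3 (73.8%), chromosome 11 (67.2%) and chromosome 19 (68.9%).

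At single positions, the library apart from the others of its group was often the only one off 0% or 100%. In HEM at 13 months it was at 88.9% at chr2:169461480, where the others were at 93.1% to 96.3%. In WT at 13 months it was at 5.0% at chr2:158553218, 92.6% at chr4:78698561, 98.1% at chr5:119462086, 38.5% at chr8:89147232, 93.3% at chr15:96040909 and 54.2% at chr17:83198340. In HEM at 3 months it was at 95.5% at chr1:83214678, 80.9% at chr2:169461480, 93.3% at chr3:6422955 and 7.58% at chr17:33313378. In WT at 3 months it was at 96.3% at chr2:97676815 and 96.2% at chr11:7844603.

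The genotype difference at chr14:55047326 differed between the ages by -16.1 points, by limma's interaction test.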

How the results depend on the processing

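In the main comparisons, 265 recomputed values kept their call or stayed within the spread and 73 moved. Over all recomputed values, moved or not, the untested mean genotype difference changed sign in 4. At 13 months (-0.663) it did so with a replicate block (1.03), a value counted as within the spread. At 3 months (0.109) it did so without HEM replicate 1 (-0.149), WT replicate 3 (-0.0625) or WT replicate 5 (-0.173). Calls at isolated positions between ages in WT (5) were 0 on the percent scale, with an offset of 5 points and at a mean of 20% to 80%, 3 without a filter on the mean and 2 with unmoderated variances. In HEM (16) they were 3 on the percent scale, 7 without a filter and 7 with unmoderated variances, and for the interaction (1) 0 on the percent scale, with the offset of 5, at 20% to 80% and with unmoderated variances. The cause was not tested. Within-group SD (HEM 13 months, WT 13 months, HEM 3 months, WT 3 months) was 6.78, 7.19, 6.42 and 6.33 points as a mean, and 9.25, 9.93, 8.25 and 8.05 at a mean of 20% to 80%. The share at 90% or above was 34.4%, 36.8%, 34.2% and 33.3%, and with no listed neighbour the share at 80% or above was 67.2%, 68.8%, 66.8% and 66.2%. With 1 library left out, calls ranged from 0 to 8 (genotype, 13 months), 0 to 3 (genotype, 3 months), 3 to 17 (age, WT), 9 to 19 (age, HEM) and 0 to 2 (interaction), and window calls from 0 to 2 and chromosome calls from 0 to 19 for age in WT, with 0 to 0 in the other comparisons. Mean differences ranged from -1.09 to -0.0699, -0.173 to 0.475, 0.899 to 1.61 and 0.111 to 1.003 points, SDs from 5.51 to 5.95, 5.38 to 5.56, 4.97 to 5.15 and 4.91 to 5.26 points, and shares at 80% or above from 57.4% to 59.1%, 58.9% to 60.01%, 56.8% to 57.97% and 56.1% to 57.2%. Unknown depth limits every position.

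With a replicate block, 0 isolated positions and 0 windows were called in the comparisons it was fitted for: genotype at 13 months, genotype at 3 months and age in HEM. The block called 19 chromosomes at 13 months, 13 at 3 months and 9 for age in HEM, all higher in HEM or at 13 months. Only numbers found in both groups inform such a fit. These were 1, 6 and 7 at 13 months, 1 and 3 at 3 months, and 1, 3 and 7 for age in HEM. HEM replicate 8 and the other unshared libraries do not enter the difference, so these calls do not describe the whole groups. The mean genotype difference over the shared numbers was 1.03 points at 13 months and 0.572 at 3 months. Whether the numbers pair the libraries is not known. Correlations of same-numbered deviations ran from 0.0494 to 0.243 at 13 months, each the highest with its own number. At 3 months they were 0.0407 and -0.126. For age in WT, no paired analysis was possible because the groups share 1 number, and the interaction was not fitted with a block.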
